A study of Triticum aestivum with 18 samples.

Results

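The effect of hydrogen peroxide (H2O2) on transcript levels was compared between the embryo and the endosperm of germinating seeds of an elite Chinese cultivar of bread wheat (Triticum aestivum). The comparison used 12 of the 18 arrays of the series, namely every array of H2O2-treated and of water-imbibed (CK) tissue, and the 6 arrays of ABA-treated tissue were left aside. The 4 groups were H2O2 embryo, CK embryo, H2O2 endosperm and CK endosperm, with 3 biological replicates each. Sterilised seeds took up pure water (CK) or 100 μmol H2O2 for 16 h, when the radicle had just broken through the seed coat, and the 2 tissues were then collected apart. Total RNA was hybridised to the Affymetrix Wheat Genome Array, on which each transcript sequence is read by a set of short probes, a probe set. The labels name an endosperm sample without saying whether the aleurone, the living cell layer around the starchy cells, was left on it, and they do not say whether embryo and endosperm of one replicate number came from the same seeds. A difference in signal cannot separate fewer cells of a type from less RNA per cell.

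In a germinating cereal grain the embryo restarts its metabolism and cell cycle and grows into the seedling, while the endosperm is a store that is taken apart to feed it. Starch, protein and cell wall polymers of the endosperm are broken down by hydrolases that the aleurone and the scutellum, the absorbing organ of the embryo, secrete. Hydrogen peroxide is produced by imbibed seeds and at low doses speeds germination in cereals, and it is known to interact with the balance of gibberellin and abscisic acid that controls the hydrolases.

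Microarray Suite 5.0 (MAS5) signals of 61179 wheat probe sets were used as deposited. The median signal was 62.0 to 81.0 on 11 of the arrays and 138 on H2O2 embryo replicate 1, where 6.79% of the probe sets lay under 10 against 17.5% to 20.6% on the others. On the log2 scale that array shared an R2 of 0.714 and 0.717 with replicates 2 and 3, which shared 0.904 with each other, and the other groups gave 0.812 to 0.918, values across probe sets, which are not independent replicates. It was therefore treated as an outlying array, and counts of calls and the interactions of single genes are given with 12 arrays and with the 11 that remain without it. The wheat germ agglutinin gene M25537, an embryo marker, averaged 2159 in the H2O2 embryo and 1579 in the CK embryo, and 221 in the H2O2 endosperm and 353 in the CK endosperm, brighter in embryo as the labels imply. The 2 oleosin probe sets, also taken as embryo markers, were instead brighter in the CK endosperm. CD921530 had means of 796 in the CK embryo and 6288 in the CK endosperm, and CD920884 had 885 in the CK embryo and 4050.3 in the CK endosperm. Of 24 probe sets for gliadins, glutenins and other starchy endosperm proteins, 20 were brighter in the CK endosperm than in the CK embryo, but 16 averaged under 100 in the CK endosperm. Their summed signal was 4937 to 9858 in the H2O2 embryo and 5633 to 5991 in the CK embryo, and 6995.0 to 8099 in the H2O2 endosperm and 5575 to 6167 in the CK endosperm. These sums overlapped between the tissues in CK but not between treatments in the endosperm. There 0 of the 24 rose and 0 fell with 12 arrays, against 1.78% and 1.57% of all probe sets. With 11 arrays 3 rose and 0 fell, against 7.08% and 6.65%. Most of the summed signal in each group came from the avenin-like probe set BJ321823. It averaged 5323 in the H2O2 embryo and 5189 in the CK embryo, and 5050 in the H2O2 endosperm and 3984 in the CK endosperm. BJ321823 was thus brighter in the CK embryo than in the CK endosperm, and the sums largely follow it. No named probe set for aleurone markers was found.

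The response to H2O2 differed between the tissues for a small share of the transcriptome, and the difference came mostly from the endosperm. With 12 arrays, 1087 of 56178 probe sets tested (1.93%) passed a Benjamini-Hochberg adjusted p of 0.05 in limma for the interaction, which is the log2 effect of H2O2 in embryo minus that in endosperm. The effect was higher in embryo for 477 of them (0.849%) and higher in endosperm for 610 (1.09%), and 402 and 512 of these differed by at least 2-fold. Without H2O2 embryo replicate 1, 5054 passed (9.0%), 2436 (4.34%) higher in embryo and 2618 (4.66%) higher in endosperm, and all of the 1087 were among them with the same sign. The median interaction over all probe sets was 0.10 with 12 arrays, -0.02 with 11 and -0.03 after quantile normalisation of the 12. Leaving out an array of CK embryo gave 499 to 528 calls, an array of H2O2 endosperm 580 to 625, an array of CK endosperm 626 to 660, and H2O2 embryo replicates 2 and 3 gave 1094 and 1259. Within the embryo, 118 probe sets (0.210%) were called between H2O2 and CK, of which 27 rose (0.0481%) and 91 fell (0.162%). Within the endosperm, 1885 (3.36%) were called, of which 1002 rose (1.78%) and 883 fell (1.57%). The 11 arrays gave 847 calls (1.51%) in the embryo, 354 rises (0.630%) and 493 falls (0.878%), and 7718 (13.7%) in the endosperm, 3980 rises (7.08%) and 3738 falls (6.65%), with a spread per probe set to which replicate 1 no longer adds. Any other single array moved the embryo count of 118 to between 57 and 166 and the endosperm count of 1885 to between 936 and 1948.

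**Figure D1:**
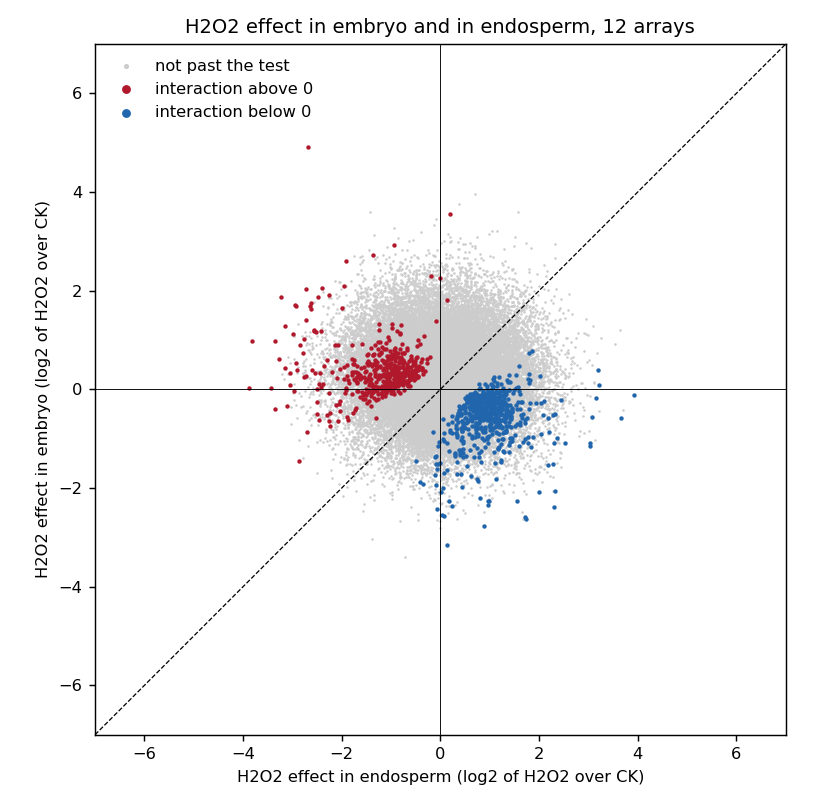
Log2 effect of H2O2 over CK in embryo (vertical axis) against that in endosperm (horizontal axis) for 56178 probe sets with 12 arrays; the dashed line marks equal effects. The 477 probe sets with a called interaction above 0 lie mostly to the left, where the endosperm level is lower with H2O2, and the 610 below 0 mostly to the right, where it is higher.

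A probe set with a called interaction was in most cases one that H2O2 moved in the endosperm. Of the 477 with an effect higher in embryo, 392 (82.2%) had a call in the endosperm and none in the embryo, 7 had a call in the embryo and none in the endosperm, 4 were called in both tissues with opposite signs, and 73 were called in neither. Of the 610 with an effect higher in endosperm, 421 (69.0%) were called in the endosperm but not in the embryo, 57 in the embryo but not in the endosperm, 15 in both with opposite signs and 116 in neither. The 11 arrays gave the same order, with 1928 of 2436 and 1993 of 2618 called in the endosperm alone and 132 and 153 called in both with opposite signs. The endosperm estimate was the larger in size for 432 of the 477 and 471 of the 610 with 12 arrays, and for 2060 of the 2436 and 2100 of the 2618 with 11.

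The called probe sets were more often than not brighter in the CK embryo than in the CK endosperm. This held for 325 of the 477 (68.1%) and 404 of the 610 (66.2%) with 12 arrays, and for 1264 of the 2436 (51.9%) and 1668 of the 2618 (63.7%) with 11, beside 46.5% of all probe sets tested. The CK arrays enter both this order and the interaction, and a lead in the direction of the interaction is wider under H2O2 by the choice of the set, so only the opposite leads are described. Of the 404 with an effect higher in endosperm and a brighter CK embryo, 300 were brighter in the endosperm under H2O2 and 104 kept a narrower embryo lead, or 1036 and 632 of the 1668 with 11 arrays. Of the 477 with an effect higher in embryo, 152 were brighter in the CK endosperm, and 146 of them were brighter in the embryo under H2O2, or 863 of 1172 with 11 arrays. Genes are described below by their GenBank accession, and the named ones are those that a rule on the size of the interaction and on gene lists selected.

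Of the gene lists with at least 5 probe sets, histones had the highest median interaction in both fits. Histones are the proteins around which DNA is wound, and most of their transcripts are made while DNA is being replicated. Of 47 probe sets named as histones, 22 higher in embryo and 0 higher in endosperm passed the interaction test with 12 arrays, against 0.849% and 1.09% of all probe sets, and 43 higher in embryo and 1 higher in endosperm with 11 arrays, against 4.34% and 4.66%. The median interaction was 1.68 with 12 arrays and 2.02 with 11, beside 0.10 and -0.02 over all probe sets. The median effect in the embryo was 0.23, or 0.59 without replicate 1, and that in the endosperm -1.41. In the endosperm 32 of the 47 fell and 0 rose with 12 arrays, and 44 fell with 11, against 1.57% and 6.65% of all probe sets. In the embryo 1 rose with 12 and 18 with 11, against 0.0481% and 0.630% of all probe sets, and none fell in either fit. Most of these names come from the study's list of genes found changed on these arrays, so the counts are not independent evidence of a direction. Of the 18 probe sets that the platform or RefSeq annotation also names, 6 were called higher in embryo and 0 higher in endosperm with 12 arrays, and 16 and 1 with 11, with a median interaction of 1.42 and 1.54. Leaving out any other single array left 15 to 19 of the 47 called. The summed starchy endosperm markers given above were higher in the H2O2 endosperm, where the histones were lower, and their part in the result was not tested.

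Summed over the 47 probe sets, the signal was 148908, 201462 and 195908 in the H2O2 embryo, against 139507, 144602 and 146414 in the CK embryo. In the H2O2 endosperm the sum was 43974, 44822 and 45343, against 90755, 87125 and 92778 in the CK endosperm. The groups did not overlap in either tissue, and H2O2 embryo replicate 1 lay far below its group's other arrays. In 45 of the 47 probe sets all 3 H2O2 endosperm arrays lay below all 3 CK endosperm arrays, against 12.4% of all probe sets. In the embryo 11 had all 3 H2O2 arrays above the CK arrays, against 10.2% of all probe sets, and 42 had replicates 2 and 3 above them. The share of all probe sets that meets this easier condition was not computed, so the count of 42 gives no measure of a rise. Of the 47, 24 carry a suffix (x, s or a) that marks probes shared by several transcripts, and they represent 35 accessions, so members of this large family share signal and the count of separate genes is uncertain.

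**Figure D2:**
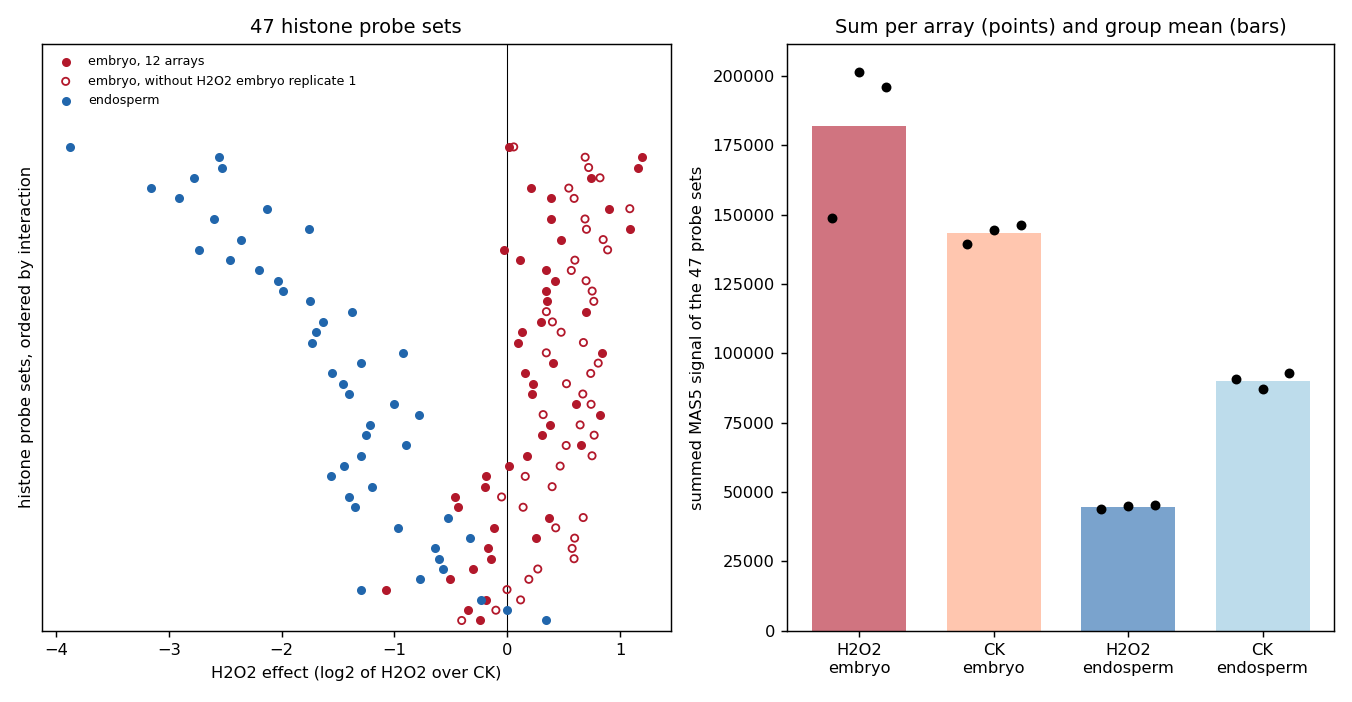
Left, log2 effect of H2O2 over CK for each of 47 histone probe sets in embryo (red, filled for 12 arrays, open without H2O2 embryo replicate 1) and in endosperm (blue), ordered by interaction; right, their summed MAS5 signal per array (points) with the group mean (bars). All but 2 endosperm estimates lie below 0, and the 3 H2O2 endosperm sums lie near 43974 to 45343, under the 87125 to 92778 of the CK endosperm.

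The histone BJ217006 had signals of 7563, 8707 and 9019 in the H2O2 embryo, against 4691, 4949 and 5418 in the CK embryo. It had 217, 229 and 279 in the H2O2 endosperm, against 1709, 1594 and 1629 in the CK endosperm. It was higher with H2O2 in embryo and lower in endosperm on every array, with log2 effects of 0.75 in embryo (adjusted p = 0.0351) and -2.78 in endosperm (adjusted p = 2.66e-07) and an interaction of 3.52 ± 0.19 (SE, adjusted p = 1.18e-06) over 12 arrays and 3.60 (adjusted p = 5.24e-11) over 11. BJ209178 was called in endosperm only, with embryo signals of 692, 677 and 827 in the H2O2 embryo, against 714, 752 and 693 in the CK embryo, groups that overlapped. Its signal in the endosperm was 9.93, 20.4 and 10.6 in the H2O2 endosperm, against 199, 145 and 236 in the CK endosperm, near the floor of 10 with H2O2, so the size of its interaction, 3.89 ± 0.45 (SE, adjusted p = 5.41e-04), or 3.93 without replicate 1, rests on that floor. BJ308545 had 2656, 928 and 931 in the H2O2 embryo, against 607, 558 and 564 in the CK embryo. It had 26.7, 50.6 and 18.6 in the H2O2 endosperm, against 201, 192 and 130.4 in the CK endosperm. Its embryo groups did not overlap although replicate 1 was far above the others, and its interaction was 3.75 ± 0.59 (SE, adjusted p = 0.00446) over 12 arrays and 3.24 (adjusted p = 1.38e-04) over 11.

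Histone H2B forms a pair with H2A in the core of the nucleosome, and members of both families were among the most different. The H2B-8 gene BJ221397 had 1235, 1857 and 1917 in the H2O2 embryo, against 1300.1, 1257 and 1197 in the CK embryo. It had 80.9, 24.6 and 65.3 in the H2O2 endosperm, against 472, 287 and 409 in the CK endosperm. The H2A-9 gene BJ306445 had 3548, 9548 and 10022 in the H2O2 embryo, against 6416, 5887 and 7122 in the CK embryo. It had 385, 387 and 377 in the H2O2 endosperm, against 1974, 2203 and 2147 in the CK endosperm. For both the endosperm groups lay apart and the embryo groups overlapped only through replicate 1, and the interactions were 3.30 ± 0.51 (SE, adjusted p = 0.00359), or 3.51 without replicate 1, for BJ221397, and 2.57 ± 0.40 (SE, adjusted p = 0.00407), or 3.06 without replicate 1, for BJ306445. BJ225202 averaged 3742 in the H2O2 embryo against 2532 in the CK embryo and 173 in the H2O2 endosperm against 877 in the CK endosperm. The interaction of BJ225202 was 2.84 (3.21 without replicate 1, adjusted p = 7.89e-04 with it). BJ219603 averaged 1242 in the H2O2 embryo against 910.2 in the CK embryo and 106 in the H2O2 endosperm against 634 in the CK endosperm. The interaction of BJ219603 was 2.99 (3.29 without replicate 1, adjusted p = 5.59e-04 with it). BJ214272 averaged 825 in the H2O2 embryo against 442 in the CK embryo and 67.5 in the H2O2 endosperm against 243 in the CK endosperm. The interaction of BJ214272 was 3.03 (3.22 without replicate 1, adjusted p = 0.0407 with it). In each of these the endosperm mean was lower with H2O2 and the embryo mean was higher. BJ214272 lost the call on removal of any 1 array of CK embryo or CK endosperm, replicate 2 or 3 of H2O2 embryo or replicate 1 of H2O2 endosperm (adjusted p up to 0.130). The exceptions to the group were D38088, 1 of whose probe sets (wcH2A-3) had an interaction of -0.59 with 12 arrays (adjusted p = 0.311) and -0.75 with 11 (adjusted p = 0.0133), and BJ239545 (wcH2B-8) at -0.35 with 12 arrays (adjusted p = 0.902) and -0.10 with 11 (adjusted p = 0.971).

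Salt tolerant protein and some of the late embryogenesis abundant (LEA) and dehydrin probe sets also fell in the endosperm. Salt tolerant protein, named in the study's list, was read by 3 accessions among the highest interactions. BJ274638 had 1935, 1737 and 1635 in the H2O2 embryo, against 1156, 1119 and 1239 in the CK embryo. It had 217, 280.2 and 141 in the H2O2 endosperm, against 968, 994 and 1081 in the CK endosperm. CK216297 had 1298, 1780.2 and 1564 in the H2O2 embryo, against 948, 995 and 1145 in the CK embryo. It had 248, 184 and 232 in the H2O2 endosperm, against 1305, 708 and 945 in the CK endosperm. The H2O2 arrays lay above the CK arrays in embryo and below them in endosperm in both, without overlap, with interactions of 2.90 ± 0.29 (SE, adjusted p = 1.73e-04), or 2.83 without replicate 1, for BJ274638, and 2.70 ± 0.31 (SE, adjusted p = 4.36e-04), or 2.82 without replicate 1, for CK216297. BJ239674, another probe set of the same cluster of sequences, had an interaction of 2.69 (2.39 without replicate 1, adjusted p = 8.65e-04 with it) and averaged 1783 in the H2O2 embryo against 916 in the CK embryo and 223 in the H2O2 endosperm against 767 in the CK endosperm. The LEA protein CK199583, of a family that shields cells during drying, had 9367, 5511 and 5196 in the H2O2 embryo, against 5630.3, 5232 and 6072 in the CK embryo. It had 824, 593 and 624 in the H2O2 endosperm, against 2679, 2397 and 2286 in the CK endosperm, with no overlap, and its interaction was 2.06 ± 0.28 (SE, adjusted p = 0.00162) over 12 arrays and 1.79 (adjusted p = 6.06e-07) over 11. Among 28 LEA and dehydrin probe sets, 3 higher in embryo and 0 higher in endosperm passed with 12 arrays and 8 higher in embryo and 0 higher in endosperm with 11, against 0.849% and 1.09% of all probe sets with 12 arrays and 4.34% and 4.66% with 11. In the endosperm 5 of the 28 fell and 0 rose with 12 arrays, against 1.57% and 1.78% of all probe sets. With 11 arrays 9 fell and 0 rose, against 6.65% and 7.08%. The median interaction of the list was 0.03 and 0.18, beside 0.10 and -0.02 over all probe sets. Only 5 of these names do not come from the study's list of changed genes. Of those 5, 0 were called in the interaction in either fit, and their median interaction was -0.41 with 12 arrays and -0.03 with 11. The counts of the list are therefore not independent evidence of a direction.

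Genes tied to redox chemistry had interactions in both directions. Germin M21962, a secreted protein that appears as cereal embryos germinate, had 8747, 6166 and 6058 in the H2O2 embryo, against 3592, 3887 and 3789 in the CK embryo. It had 437, 582 and 514 in the H2O2 endosperm, against 714, 751 and 653 in the CK endosperm, and the groups lay apart in both tissues. It rose in the embryo with log2 effects of 0.88 in embryo (adjusted p = 0.0405) and -0.47 in endosperm (adjusted p = 0.148), an interaction of 1.35 ± 0.23 (SE, adjusted p = 0.00627), or 1.18 without replicate 1. Glutathione S-transferase AY064480, an enzyme that joins glutathione to reactive compounds, had 5095, 4619 and 4582 in the H2O2 embryo, against 3032, 3016 and 3053 in the CK embryo. It had 303, 243 and 329 in the H2O2 endosperm, against 469, 633 and 476 in the CK endosperm. Its groups lay apart in both tissues in opposite directions, with an interaction of 1.50 ± 0.22 (SE, adjusted p = 0.00284), or 1.45 without replicate 1. Wheat germ agglutinin M25537 had 2256, 2126 and 2094 in the H2O2 embryo, against 1686, 1565 and 1485 in the CK embryo. It had 269, 208 and 186 in the H2O2 endosperm, against 273, 374 and 413 in the CK endosperm. Its interaction was 1.13 ± 0.26 (SE, adjusted p = 0.0425), or 1.09 without replicate 1. Glutathione synthetase CA607898, the last enzyme of glutathione synthesis, went the other way, with 377, 589.7 and 524 in the H2O2 embryo, against 703, 639.8 and 613 in the CK embryo. It had 524, 587 and 754 in the H2O2 endosperm, against 273, 196 and 259 in the CK endosperm. The groups of CA607898 lay apart in both tissues, and its interaction was -1.77 ± 0.31 (SE, adjusted p = 0.00810) over 12 arrays and -1.58 (adjusted p = 2.96e-04) over 11. Thioredoxin CA608459 had an interaction of -1.19 (-1.27 without replicate 1, adjusted p = 0.0498 with it), and over the 27 probe sets of the list 2 higher in embryo and 3 higher in endosperm passed, or 2 higher in embryo and 7 higher in endosperm without replicate 1, against 0.849% and 1.09% of all probe sets with 12 arrays and 4.34% and 4.66% with 11. Only 12 of the 27 names do not come from the study's list of changed genes. Of those 12, 0 higher in embryo and 1 higher in endosperm passed with 12 arrays, and 0 and 3 with 11. M25537 lost the call on removal of any 1 array of CK embryo, replicate 2 or 3 of CK endosperm, replicate 2 or 3 of H2O2 embryo or replicate 2 or 3 of H2O2 endosperm (adjusted p up to 0.141). CA608459 lost the call on removal of any 1 array of CK embryo or CK endosperm, replicate 2 or 3 of H2O2 embryo or replicate 1 or 3 of H2O2 endosperm (adjusted p up to 0.163).

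Of 13 defence probe sets, 3 higher in embryo and 0 higher in endosperm passed with 12 arrays and 3 higher in embryo and 1 higher in endosperm with 11, against 0.849% and 1.09% of all probe sets with 12 arrays and 4.34% and 4.66% with 11. All were named only in the study's list, and the list as a whole leaned the other way, with a median interaction of -0.42 with 12 arrays and -0.34 with 11 and a median endosperm effect of 0.66. In the endosperm 2 rose and 3 fell with 12 arrays and 7 rose and 3 fell with 11. CA602902, placed in biotic stress, had 357, 439.9 and 398 in the H2O2 embryo, against 740.2, 693 and 722 in the CK embryo. It had 248, 205 and 146 in the H2O2 endosperm, against 1259, 1272 and 1299 in the CK endosperm. It was lower with H2O2 in both tissues without overlap and more so in the endosperm, with log2 effects of -0.86 in embryo (adjusted p = 0.141) and -2.71 in endosperm (adjusted p = 4.44e-06) and an interaction of 1.85 ± 0.28 (SE, adjusted p = 0.00309), or 1.93 without replicate 1. CD453602 of the same class averaged 2369 in the H2O2 embryo against 2497 in the CK embryo and 395 in the H2O2 endosperm against 772 in the CK endosperm. The interaction of CD453602 was 0.88 (1.004 without replicate 1, adjusted p = 0.0450 with it). Sucrose synthase CD869165, which splits sucrose for use in growing tissue, had 19726, 8088 and 11219.6 in the H2O2 embryo, against 12361, 11660.1 and 10563 in the CK embryo. It had 2599, 2973 and 2497 in the H2O2 endosperm, against 6999, 6902 and 7102 in the CK endosperm. Its embryo groups overlapped and its endosperm groups did not, and the interaction was 1.46 ± 0.33 (SE, adjusted p = 0.0341) over 12 arrays and 1.11 (adjusted p = 5.22e-05) over 11. The helix-loop-helix transcription factor CA741924 averaged 1096 in the H2O2 embryo against 928 in the CK embryo and 343 in the H2O2 endosperm against 703 in the CK endosperm. The interaction of CA741924 was 1.28 (1.18 without replicate 1, adjusted p = 0.00996 with it). The transcription factor Myb3 (AJ615787) was bright in the endosperm and had 377, 300.2 and 286 in the H2O2 embryo, against 454, 588 and 598 in the CK embryo. It had 11643, 12502 and 11693 in the H2O2 endosperm, against 8491, 8399 and 8972 in the CK endosperm, with no overlap in either tissue and an interaction of -1.24 ± 0.20 (SE, adjusted p = 0.00573), or -1.36 without replicate 1. AY123421, annotated as the ribosomal protein CL9 (RPL9), averaged 529 in the H2O2 embryo against 278 in the CK embryo and 95.0 in the H2O2 endosperm against 214 in the CK endosperm. The interaction of AY123421 was 2.06 (1.76 without replicate 1, adjusted p = 0.0269 with it). AY123421 was the 1 member called with 12 arrays of 8 ribosomal protein probe sets, against 1.93% of all probe sets. With 11 arrays 2 of the 8 were called, both higher in embryo, against 9.0%. CD453602 lost the call on removal of any 1 array of CK embryo, CK endosperm or H2O2 endosperm or replicate 2 or 3 of H2O2 embryo (adjusted p up to 0.150). CD869165 lost the call on removal of any 1 array of CK embryo, CK endosperm or H2O2 endosperm (adjusted p up to 0.110). AY123421 lost the call on removal of any 1 array of CK embryo, replicate 2 or 3 of CK endosperm or replicate 1 or 2 of H2O2 endosperm (adjusted p up to 0.0895).

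Lipid genes held some of the largest interactions. BJ242205, very weakly similar to an acyl CoA reductase, had 1064, 478 and 472 in the H2O2 embryo, against 237, 261 and 371 in the CK embryo. It had 46.7, 13.2 and 63.0 in the H2O2 endosperm, against 196, 311 and 323 in the CK endosperm. CA729605, weakly similar to a cyclopropane fatty acid synthase, had 1015, 218 and 204 in the H2O2 embryo, against 285, 152 and 133 in the CK embryo. It had 15.2, 6.63 and 7.74 in the H2O2 endosperm, against 113, 122 and 116 in the CK endosperm. In both the endosperm signal was near or at the floor with H2O2 and above 100 in CK, and the interactions were 4.13 ± 0.72 (SE, adjusted p = 0.00775) over 12 arrays and 3.74 (adjusted p = 8.44e-04) over 11 for BJ242205 and 4.33 ± 0.82 (SE, adjusted p = 0.0137) over 12 arrays and 3.58 (adjusted p = 0.00287) over 11 for CA729605. Brighter matches to the same synthase, CK159209 and BQ483035, also fell in the endosperm. CK159209 had 6156, 6303 and 6059 in the H2O2 embryo, against 5802, 5807 and 5689 in the CK embryo. It had 1128, 1082 and 877 in the H2O2 endosperm, against 2081, 2081 and 1874 in the CK endosperm. Its interaction was 1.07 ± 0.17 (SE, adjusted p = 0.00514), or 1.07 without replicate 1. BQ483035 averaged 1404 in the H2O2 embryo against 1161 in the CK embryo and 162 in the H2O2 endosperm against 386 in the CK endosperm. The interaction of BQ483035 was 1.48 (1.80 without replicate 1, adjusted p = 0.0427 with it). CA729605 lost the call on removal of replicate 2 or 3 of CK embryo (adjusted p up to 0.0569). BQ483035 lost the call on removal of any 1 array of CK embryo, CK endosperm or H2O2 endosperm or replicate 2 or 3 of H2O2 embryo (adjusted p up to 0.134). Cholinephosphate cytidylyl transferase (BJ222865), the step that sets the pace of phosphatidylcholine synthesis, went the other way, at 1253, 869 and 859 in the H2O2 embryo, against 887, 887 and 893 in the CK embryo. It had 1485, 1343 and 1465 in the H2O2 endosperm, against 629.7, 684 and 617 in the CK endosperm. Its embryo groups overlapped, its endosperm groups did not, and its interaction was -1.02 ± 0.22 (SE, adjusted p = 0.0317), or -1.19 without replicate 1. BJ222865 lost the call on removal of any 1 array of CK embryo, CK endosperm or H2O2 endosperm or replicate 2 or 3 of H2O2 embryo (adjusted p up to 0.0993).

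Lipid transfer proteins, small secreted proteins that bind fatty acids and waxes, gave a lower summed signal in the H2O2 endosperm. CK215090, similar to LTP4, had 6845, 8924 and 9524 in the H2O2 embryo, against 8288, 8056 and 8526 in the CK embryo. It had 2847, 2956 and 2829.7 in the H2O2 endosperm, against 6353, 6666 and 6263 in the CK endosperm. CK164223, similar to a barley transfer protein, had 5440.4, 8154 and 8142 in the H2O2 embryo, against 6784, 7262 and 6946 in the CK embryo. It had 1754, 2055 and 2009.6 in the H2O2 endosperm, against 4053, 3598 and 3969 in the CK endosperm. In both the embryo groups overlapped and the endosperm groups lay apart, with interactions of 1.17 ± 0.19 (SE, adjusted p = 0.00446) over 12 arrays and 1.31 (adjusted p = 2.63e-08) over 11 for CK215090 and 1.03 ± 0.22 (SE, adjusted p = 0.0261) over 12 arrays and 1.22 (adjusted p = 6.40e-07) over 11 for CK164223. Of 22 such probe sets, 2 higher in embryo and 0 higher in endosperm passed with 12 arrays and 11 higher in embryo and 0 higher in endosperm with 11, against 0.849% and 1.09% of all probe sets with 12 arrays and 4.34% and 4.66% with 11, and the names come from annotation that was not chosen on these arrays. Their median interaction was 0.69 and 0.64, beside 0.10 and -0.02 over all probe sets. In the endosperm 6 fell and 0 rose with 12 arrays and 11 fell and 1 rose with 11, against 1.57% and 1.78% of all probe sets with 12 and 6.65% and 7.08% with 11. Summed over the 22, the signal was 73602 to 86911 in the H2O2 embryo and 75337 to 82012 in the CK embryo, and 28339 to 29467 in the H2O2 endosperm and 50884 to 53601 in the CK endosperm. As for the histones, the starchy endosperm markers had a higher sum in the H2O2 endosperm, and their part in the result was not tested. Any other single array left 1 to 4 of them called. CK164223 lost the call on removal of any 1 array of CK embryo, CK endosperm or H2O2 endosperm (adjusted p up to 0.0874).

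Of the other lipid lists, 3 had called shares of 1.27% to 3.76% with 12 arrays, beside 1.93% of all probe sets, and of 13.5% to 15.8% with 11, beside 9.0%. Of 158 probe sets for fatty acid synthesis and elongation, 0 higher in embryo and 2 higher in endosperm passed with 12 arrays and 13 higher in embryo and 12 higher in endosperm with 11, with a median interaction of -0.02 with 12 arrays and -0.06 with 11. The 103 for sterols, sphingolipids and related lipids gave 0 higher in embryo and 2 higher in endosperm, or 4 higher in embryo and 11 higher in endosperm without replicate 1, and the 133 for lipid degradation gave 1 higher in embryo and 4 higher in endosperm, or 5 higher in embryo and 13 higher in endosperm. BJ238421, weakly similar to the long-chain acyl-CoA synthetase LACS6 that activates fatty acids for breakdown, had 93.6, 80.6 and 141 in the H2O2 embryo, against 186, 216 and 267 in the CK embryo. It had 189, 303 and 418 in the H2O2 endosperm, against 130.2, 129 and 113 in the CK endosperm. Its groups did not overlap in either tissue, lower with H2O2 in embryo and higher in endosperm, and the interaction was -2.33 ± 0.50 (SE, adjusted p = 0.0263), or -2.27 without replicate 1, while CA663328, a moderate match to the same enzyme, gave -0.90 (-1.01 without replicate 1, adjusted p = 0.0432 with it). The lipases CA651259 and BJ272793 gave -1.94 (-1.77 without replicate 1, adjusted p = 0.0204 with it) and -1.20 (-1.22 without replicate 1, adjusted p = 0.0202 with it), the pyridoxal-dependent decarboxylase CA610745 of sphingolipid metabolism -2.19 (-1.99 without replicate 1, adjusted p = 0.00612 with it), and the dehydrogenase CA652505 -0.84 (-0.72 without replicate 1, adjusted p = 0.0435 with it). CA733369, weakly similar to a WD-40 repeat protein, had 273, 185 and 198 in the H2O2 embryo, against 368, 266 and 337 in the CK embryo. It had 207, 226 and 201 in the H2O2 endosperm, against 65.3, 32.8 and 47.3 in the CK endosperm. Its interaction was -2.75 ± 0.47 (SE, adjusted p = 0.00684), or -2.92 without replicate 1. BJ238421 lost the call on removal of any 1 array of CK embryo or CK endosperm or replicate 2 or 3 of H2O2 endosperm (adjusted p up to 0.102). CA663328 lost the call on removal of any 1 array of CK embryo, CK endosperm or H2O2 endosperm or replicate 2 or 3 of H2O2 embryo (adjusted p up to 0.138). CA651259 lost the call on removal of any 1 array of CK embryo, replicate 2 or 3 of CK endosperm or replicate 2 or 3 of H2O2 endosperm (adjusted p up to 0.0731). BJ272793 lost the call on removal of any 1 array of CK embryo, replicate 1 of CK endosperm or replicate 1 or 3 of H2O2 endosperm (adjusted p up to 0.0861). CA652505 lost the call on removal of any 1 array of CK embryo, CK endosperm or H2O2 endosperm or replicate 3 of H2O2 embryo (adjusted p up to 0.138).

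Cell wall genes had interactions in both directions. The list of 125 probe sets for wall modification gave 8 higher in embryo and 1 higher in endosperm with 12 arrays and 13 higher in embryo and 6 higher in endosperm with 11, against 0.849% and 1.09% of all probe sets with 12 arrays and 4.34% and 4.66% with 11. The 1 higher in endosperm with 12 arrays was BQ838005, a match to a beta-expansin that the expansin list does not hold. Of 63 expansin probe sets, 5 higher in embryo and 0 higher in endosperm passed with 12 arrays and 8 higher in embryo and 4 higher in endosperm with 11, and the median interaction was 0.26 and 0.05. The lists of 65 probe sets for cellulose and hemicellulose synthesis and of 30 for xyloglucan endotransglucosylases gave 4 higher in embryo and 0 higher in endosperm and 3 higher in embryo and 0 higher in endosperm with 12 arrays, and 9 higher in embryo and 0 higher in endosperm and 5 higher in embryo and 0 higher in endosperm with 11. Any other single array left 1 to 5 expansins, 2 to 4 genes of glucan synthesis and 0 to 2 xyloglucan endotransglucosylases called. In the list of 77 for wall precursors 3 higher in embryo and 5 higher in endosperm passed, or 10 higher in embryo and 12 higher in endosperm without replicate 1, and in that of 110 for wall degradation 2 higher in embryo and 2 higher in endosperm, or 5 higher in embryo and 5 higher in endosperm. Of 36 pectin esterases 0 passed with 12 arrays and 1 with 11.

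Expansins loosen the wall so that a cell can extend. CA637685, very weakly similar to expansin A11, had 2040.1, 1868 and 1819 in the H2O2 embryo, against 1507, 1939 and 1409 in the CK embryo. It had 344, 344 and 359 in the H2O2 endosperm, against 836, 833 and 774 in the CK endosperm. EXPA3 (AY543529) had 2029, 1469.7 and 1273 in the H2O2 embryo, against 1156, 1075 and 1001 in the CK embryo. It had 258, 238 and 257 in the H2O2 endosperm, against 446, 405 and 488 in the CK endosperm. The endosperm groups of both lay apart and only EXPA3 had embryo groups that did not overlap, with interactions of 1.47 ± 0.21 (SE, adjusted p = 0.00197) over 12 arrays and 1.42 (adjusted p = 2.01e-05) over 11 and, for EXPA3, 1.36 ± 0.26 (SE, adjusted p = 0.0123) over 12 arrays and 1.18 (adjusted p = 3.27e-04) over 11. EXPA5 (AY543531) had 1188, 509 and 524 in the H2O2 embryo, against 531, 335 and 389 in the CK embryo. It had 73.9, 88.5 and 78.3 in the H2O2 endosperm, against 239, 158 and 169 in the CK endosperm. Its interaction was 1.94 (1.54 without replicate 1, adjusted p = 0.0487 with it). EXPB6 (CA638337) averaged 586 in the H2O2 embryo against 362 in the CK embryo and 149 in the H2O2 endosperm against 372 in the CK endosperm. The interaction of CA638337 was 1.91 (1.53 without replicate 1, adjusted p = 0.0440 with it). For EXPA5 and EXPB6 replicate 1 was the highest of the H2O2 embryo arrays, and without it the interactions were 1.54 and 1.53. EXPA3 lost the call on removal of replicate 3 of CK embryo (adjusted p up to 0.0536). EXPA5 lost the call on removal of any 1 array of CK embryo, CK endosperm or H2O2 endosperm (adjusted p up to 0.150). EXPB6 lost the call on removal of any 1 array of CK embryo or H2O2 endosperm or replicate 2 or 3 of CK endosperm (adjusted p up to 0.139). BQ838005, weakly similar to a rice beta-expansin (EXB11), went the other way and was bright in the endosperm, with 912, 1256 and 1109.9 in the H2O2 embryo, against 3335, 3806 and 3697 in the CK embryo. It had 10471, 10075 and 10769 in the H2O2 endosperm, against 11131, 10960.0 and 11603 in the CK endosperm. It fell in the embryo, while its endosperm arrays lay only slightly lower with H2O2, with log2 effects of -1.74 in embryo (adjusted p = 1.86e-05) and -0.11 in endosperm (adjusted p = 0.791) and an interaction of -1.63 ± 0.18 (SE, adjusted p = 4.36e-04) over 12 arrays and -1.51 (adjusted p = 2.82e-08) over 11.

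The cellulose synthase-like genes of the CSLC family make the backbone of xyloglucan in Arabidopsis and cellulose synthase A1 makes cellulose. The CSLC12 match CK208409 had 3471, 3188 and 2972 in the H2O2 embryo, against 2443, 2594 and 2665 in the CK embryo. It had 1297, 1264 and 1103 in the H2O2 endosperm, against 2775, 2459 and 2711 in the CK endosperm. It was higher with H2O2 in embryo and lower in endosperm with no overlap, and its interaction was 1.44 ± 0.17 (SE, adjusted p = 6.28e-04) over 12 arrays and 1.38 (adjusted p = 6.51e-07) over 11. The CSLC8 match CD452591, the CESA1 match BJ260861 and RGP1 (BJ283983), a protein tied to wall sugar supply, gave 0.94 (0.86 without replicate 1, adjusted p = 0.0277 with it), 0.95 (0.85 without replicate 1, adjusted p = 0.0149 with it) and 0.88 (0.79 without replicate 1, adjusted p = 0.0192 with it). BJ260861 averaged 5908 in the H2O2 embryo against 4288 in the CK embryo and 2286 in the H2O2 endosperm against 3223 in the CK endosperm. Xyloglucan endotransglucosylases cut and rejoin xyloglucan, and the XTH23 match CK214572 averaged 348 in the H2O2 embryo against 240.4 in the CK embryo and 164 in the H2O2 endosperm against 344 in the CK endosperm, while the XTH9 match CD866709 averaged 4795 in the H2O2 embryo against 4864 in the CK embryo and 3872 in the H2O2 endosperm against 6463 in the CK endosperm. Their interactions were 1.59 (1.52 without replicate 1, adjusted p = 0.0317 with it) and 0.72 (0.74 without replicate 1, adjusted p = 0.0286 with it). CD452591 lost the call on removal of any 1 array of CK embryo or CK endosperm or replicate 2 or 3 of H2O2 endosperm (adjusted p up to 0.102). BJ260861 lost the call on removal of any 1 array of CK embryo, replicate 1 of CK endosperm or replicate 2 or 3 of H2O2 endosperm (adjusted p up to 0.0549). BJ283983 and CD866709 lost the call on removal of any 1 array of CK embryo, CK endosperm or H2O2 endosperm (adjusted p up to 0.108). CK214572 lost the call on removal of any 1 array of CK embryo, replicate 1 or 2 of CK endosperm, replicate 3 of H2O2 embryo or replicate 1 or 2 of H2O2 endosperm (adjusted p up to 0.105).

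Among wall precursor enzymes, UDP-glucose 6-dehydrogenase (CA720181), which leads sugar into pectin and xylan, had 849.8, 1370.4 and 1283 in the H2O2 embryo, against 1779, 1561 and 1603 in the CK embryo. It had 1787, 1526 and 1296 in the H2O2 endosperm, against 623, 452 and 721 in the CK endosperm. Its groups lay apart in both tissues, lower in the H2O2 embryo and higher in the H2O2 endosperm, and its interaction was -1.90 ± 0.30 (SE, adjusted p = 0.00407) over 12 arrays and -1.68 (adjusted p = 3.94e-05) over 11. The rhamnose synthesis enzyme RHM3 (BJ314801) had the lowest interaction of the named genes, -4.70 ± 1.06 (SE, adjusted p = 0.0364) over 12 arrays and -4.76 (adjusted p = 0.0105) over 11, at low levels of 23.4, 9.86 and 42.2 in the H2O2 embryo, against 118, 146 and 82.1 in the CK embryo. It had 122, 97.6 and 50.9 in the H2O2 endosperm, against 7.46, 11.4 and 43.8 in the CK endosperm, several of them near the floor. CA654194, weakly similar to an NAD-dependent epimerase, gave -1.37 (-1.20 without replicate 1, adjusted p = 0.0258 with it). Phosphomannomutase CA642396, which prepares mannose for wall polymers and for ascorbate, had 427, 302 and 344 in the H2O2 embryo, against 202, 176 and 121 in the CK embryo. It had 131, 146 and 106 in the H2O2 endosperm, against 197, 232 and 248 in the CK endosperm. Its interaction was 1.95 (1.81 without replicate 1, adjusted p = 0.0230 with it). Its groups did not overlap in either tissue, higher with H2O2 in embryo and lower in endosperm. In wall degradation, BQ237981, similar to a polygalacturonase that cuts pectin, averaged 683 in the H2O2 embryo against 407 in the CK embryo and 167 in the H2O2 endosperm against 316 in the CK endosperm and gave 1.64 (1.40 without replicate 1, adjusted p = 0.0317 with it), the beta-xylosidase XYL4 match BQ905539 gave 0.67 (0.70 without replicate 1, adjusted p = 0.0449 with it), and the glycosyl hydrolase family 3 genes CA694274 and BJ274015 gave -1.92 (-2.29 without replicate 1, adjusted p = 0.0387 with it) and -1.40 (-1.11 without replicate 1, adjusted p = 0.0179 with it). BJ314801 lost the call on removal of any 1 array of CK embryo or H2O2 endosperm, replicate 1 or 2 of CK endosperm or replicate 2 of H2O2 embryo (adjusted p up to 0.114). CA654194 lost the call on removal of any 1 array of CK embryo, replicate 1 or 3 of CK endosperm or replicate 1 or 3 of H2O2 endosperm (adjusted p up to 0.0962). CA642396 lost the call on removal of replicate 2 or 3 of CK embryo, replicate 2 or 3 of CK endosperm or replicate 1 or 3 of H2O2 endosperm (adjusted p up to 0.0813). BQ237981 lost the call on removal of any 1 array of CK embryo or CK endosperm or replicate 2 or 3 of H2O2 endosperm (adjusted p up to 0.110). BQ905539 lost the call on removal of any 1 array of CK embryo, CK endosperm or H2O2 endosperm or replicate 2 or 3 of H2O2 embryo (adjusted p up to 0.142). CA694274 lost the call on removal of any 1 array of CK embryo or H2O2 endosperm, replicate 1 or 2 of CK endosperm or replicate 2 or 3 of H2O2 embryo (adjusted p up to 0.124). BJ274015 lost the call on removal of any 1 array of CK embryo or H2O2 endosperm or replicate 1 of CK endosperm (adjusted p up to 0.0610).

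Of the 9 genes for which the study designed RT-PCR primers, 3 were matched to probe sets by accession, and the primers of 2 are shown because they tie a named sequence to the probe sets below.
Phosphomannomutase CK198230 forward: ggtgtcagtgcttcgtgaaa
Phosphomannomutase CK198230 reverse: tgatcattgccacccttgta
Expansin A1 AY485121 forward: catcaacggccactcctact
Expansin A1 AY485121 reverse: aaggtgttgctctgccagtt
A probe set of CK198230 had 443, 1398 and 1492 in the H2O2 embryo, against 1392, 1201 and 1257 in the CK embryo. It had 171, 138 and 207 in the H2O2 endosperm, against 347, 352 and 461 in the CK endosperm. Replicate 1 was the low array of the H2O2 embryo, and the interaction was 0.78 ± 0.50 (SE, adjusted p = 0.538) over 12 arrays and 1.35 (adjusted p = 8.43e-04) over 11. The other, whose probes other transcripts share, gave 0.41 ± 0.22 (SE, adjusted p = 0.433) over 12 arrays and 0.58 (adjusted p = 0.00961) over 11. Both were lower in the H2O2 endosperm than in the CK endosperm on every array, and both passed only without replicate 1. Expansin A1 had 6495, 2401 and 2384 in the H2O2 embryo, against 2224, 2328 and 2327 in the CK embryo. It had 1226, 1325 and 1114 in the H2O2 endosperm, against 1079.7, 1085 and 1264 in the CK endosperm. Apart from H2O2 embryo replicate 1 the groups were close in both tissues, and the interaction was 0.45 ± 0.40 (SE, adjusted p = 0.686) over 12 arrays and -0.04 (adjusted p = 0.938) over 11. Expansin B2 (AY543540) was read by 2 probe sets whose signals were mostly under 100, with interactions of 2.31 (1.43 without replicate 1, adjusted p = 0.506 with it) and -0.67 (-1.46 without replicate 1, adjusted p = 0.853 with it).

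The called share was 0.976% of the light reaction list and 6.73% of the Calvin cycle list with 12 arrays, beside 1.93% of all probe sets, and 6.83% and 13.5% with 11, beside 9.0%. Of 205 light reaction probe sets, 2 higher in embryo and 0 higher in endosperm passed with 12 arrays and 11 higher in embryo and 3 higher in endosperm with 11, and the median interaction was 0.40 and 0.26. With 12 arrays the median was highest among the photosynthesis lists for rubisco small subunits, 1.08 over 15 probe sets (0.35 without replicate 1), with 1 called with 12 arrays and 2 with 11. Without replicate 1 it was highest for photosystem I subunits, 0.64 over 30 probe sets (0.91 with it), with 0 called with 12 arrays and 1 with 11, and that of photosystem II subunits was 0.54 with 12 arrays and 0.49 with 11. In the Calvin cycle, which fixes carbon, 6 higher in embryo and 1 higher in endosperm of 104 passed with 12 arrays, and 7 higher in embryo and 7 higher in endosperm with 11. The rubisco small subunit CK212552 had 62869, 17161 and 22616 in the H2O2 embryo, against 7753, 6038 and 4782 in the CK embryo. It had 6490.4, 6671 and 12266 in the H2O2 endosperm, against 6930.4, 8629 and 9197 in the CK endosperm. It was higher in the H2O2 embryo on every array with replicate 1 far above the rest, the endosperm groups overlapped, and the interaction was 2.27 ± 0.54 (SE, adjusted p = 0.0440) over 12 arrays and 1.71 (adjusted p = 7.84e-04) over 11. The rubisco large subunit AY328025, a plastid gene, had 46215, 36734 and 32514 in the H2O2 embryo, against 28934, 34359.6 and 31928 in the CK embryo. It had 32764, 37738 and 34893 in the H2O2 endosperm, against 71829, 78019 and 78099 in the CK endosperm. Its embryo groups overlapped and its endosperm level with H2O2 was lower on every array, with an interaction of 1.38 ± 0.24 (SE, adjusted p = 0.00707) over 12 arrays and 1.24 (adjusted p = 6.51e-07) over 11. CA659744, another large subunit probe set, gave 1.40 (1.20 without replicate 1, adjusted p = 0.0106 with it). Other plastid sequences had larger interactions at low signals, which were CA645616 (large subunit) 5.11 (4.79 without replicate 1, adjusted p = 0.0176 with it) with means of 81.3 in the H2O2 embryo against 24.8 in the CK embryo and 3.90 in the H2O2 endosperm against 100.0 in the CK endosperm, CA656046 (large subunit) 2.41 (2.05 without replicate 1, adjusted p = 0.0382 with it), and CA656907 (PSBA, the D1 protein of photosystem II) 4.51 (4.34 without replicate 1, adjusted p = 0.0379 with it) with means of 101 in the H2O2 embryo against 16.8 in the CK embryo and 36.9 in the H2O2 endosperm against 116 in the CK endosperm. FBP aldolase BJ265323, of the Calvin cycle and glycolysis, had 406, 553 and 434 in the H2O2 embryo, against 415, 346 and 397 in the CK embryo. It had 156, 134 and 91.4 in the H2O2 endosperm, against 391, 448 and 359 in the CK endosperm. Its interaction was 1.94 ± 0.34 (SE, adjusted p = 0.00831), or 2.03 without replicate 1. CK212552 and CA656046 lost the call on removal of any 1 array of CK embryo or CK endosperm or replicate 1 or 2 of H2O2 endosperm (adjusted p up to 0.139). CA645616 lost the call on removal of replicate 1 or 2 of CK embryo or replicate 2 of CK endosperm (adjusted p up to 0.0597). CA656907 lost the call on removal of any 1 array of CK endosperm or H2O2 endosperm, replicate 1 or 3 of CK embryo or replicate 2 of H2O2 embryo (adjusted p up to 0.113).

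The lists of starch cleavage and of protein degradation had the lowest median interactions, and most of their genes named here were far brighter in endosperm and lower in the H2O2 embryo than in the CK embryo. Of 5 probe sets for starch cleavage, 0 higher in embryo and 4 higher in endosperm passed with 12 arrays and 0 higher in embryo and 4 higher in endosperm with 11, against 0.849% and 1.09% of all probe sets with 12 arrays and 4.34% and 4.66% with 11. The median effect was -1.81 in embryo, or -1.92 without replicate 1, and 0.39 in endosperm. Of 13 for proteases and protein degradation, 0 higher in embryo and 8 higher in endosperm passed with 12 arrays and 1 higher in embryo and 9 higher in endosperm with 11. Of 8 for metallothionein and metal binding, 0 higher in embryo and 4 higher in endosperm passed in both fits. All but 1 of these names were taken from genes that the study had selected on these arrays, so the counts are not independent evidence of a direction. Any other single array left 3 to 4 of the starch cleavage genes, 7 to 8 of the proteases and 4 of the metal-binding genes called. The summed signal of the 5 starch probe sets was 1729.5 to 3022 in the H2O2 embryo and 6641 to 6860 in the CK embryo, and 59401 to 68922 in the H2O2 endosperm and 43895 to 49456 in the CK endosperm. That of the 13 protease probe sets was 10080.2 to 12134 in the H2O2 embryo and 21079 to 22640.4 in the CK embryo, and 237606 to 265046 in the H2O2 endosperm and 236513 to 247789 in the CK endosperm. The embryo sums did not overlap between treatments in either list.

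Starch cleavage genes encode enzymes that open the starch granule. BF293263 had 197, 204 and 119 in the H2O2 embryo, against 589.6, 594 and 595 in the CK embryo. It had 7632, 7990.4 and 7803 in the H2O2 endosperm, against 3596, 3475 and 3614 in the CK endosperm. It was lower with H2O2 on every embryo array and higher on every endosperm array, and both tissues passed the test, with log2 effects of -1.81 in embryo (adjusted p = 1.83e-04) and 1.13 in endosperm (adjusted p = 0.00215) and an interaction of -2.95 ± 0.25 (SE, adjusted p = 5.65e-05) over 12 arrays and -3.06 (adjusted p = 1.28e-08) over 11. CA720455 had 579, 367 and 448 in the H2O2 embryo, against 1682, 1471 and 1686 in the CK embryo. It had 12556, 14121 and 13103 in the H2O2 endosperm, against 8230.1, 7034 and 8597 in the CK endosperm. It moved in the same directions, with log2 effects of -1.82 in embryo (adjusted p = 8.46e-05) and 0.74 in endosperm (adjusted p = 0.0173) and an interaction of -2.56 ± 0.22 (SE, adjusted p = 6.73e-05), or -2.73 without replicate 1. AL820663 had 903, 527 and 484 in the H2O2 embryo, against 2484, 2451 and 2385 in the CK embryo. It had 18632, 19987 and 18803 in the H2O2 endosperm, against 17723, 19206 and 18240.1 in the CK endosperm. It fell in the embryo, its endosperm groups overlapped, and it had log2 effects of -1.99 in embryo (adjusted p = 1.30e-04) and 0.06 in endosperm (adjusted p = 0.934) and an interaction of -2.05 ± 0.26 (SE, adjusted p = 8.58e-04), or -2.33 without replicate 1. CA644563 averaged 864 in the H2O2 embryo against 2043 in the CK embryo and 22526 in the H2O2 endosperm against 17176 in the CK endosperm. The interaction of CA644563 was -1.72 (-2.08 without replicate 1, adjusted p = 0.0191 with it). BF293263 and CA720455 carry the x suffix and may share signal. CA644563 lost the call on removal of replicate 2 or 3 of CK embryo, replicate 1 of CK endosperm or replicate 1 or 2 of H2O2 endosperm (adjusted p up to 0.0684).

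**Figure D3:**
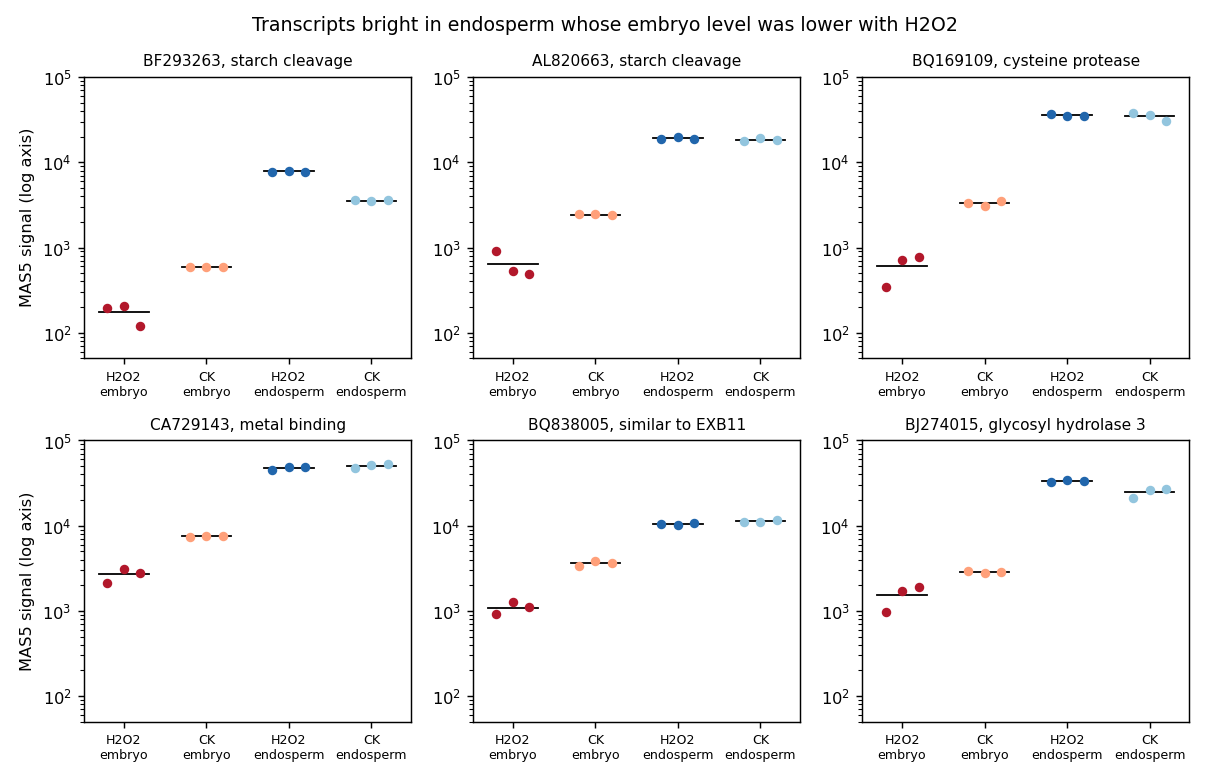
MAS5 signal on each array (points, log axis) and group mean (lines) for 6 transcripts in H2O2 embryo, CK embryo, H2O2 endosperm and CK endosperm. The endosperm levels of all 6 lie above the embryo levels, and in each panel the 3 H2O2 embryo arrays lie below the 3 CK embryo arrays.

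The cysteine protease BQ169109, of a class that digests storage proteins, had 345, 705 and 769 in the H2O2 embryo, against 3364, 3109.8 and 3551 in the CK embryo. It had 36999.6, 35396 and 35368 in the H2O2 endosperm, against 38189.8, 36131 and 30899 in the CK endosperm, groups that overlapped. The log2 effects were -2.55 in embryo (adjusted p = 1.16e-04) and 0.04 in endosperm (adjusted p = 0.968), and the interaction was -2.58 ± 0.32 (SE, adjusted p = 7.93e-04) over 12 arrays and -2.22 (adjusted p = 1.31e-09) over 11. BJ251154 had 70.7, 85.5 and 111 in the H2O2 embryo, against 168, 187 and 199 in the CK embryo. It had 1508, 1796 and 1699 in the H2O2 endosperm, against 711, 556 and 629 in the CK endosperm. Its interaction was -2.47 ± 0.30 (SE, adjusted p = 6.64e-04), or -2.32 without replicate 1. CA699722 averaged 195 in the H2O2 embryo against 227 in the CK embryo and 1014 in the H2O2 endosperm against 220.3 in the CK endosperm. The interaction of CA699722 was -2.80 (-3.45 without replicate 1, adjusted p = 0.0314 with it). BJ251154 and CA699722 belong to protein degradation with no closer name. The cullin CA642033, the scaffold of a ubiquitin ligase, had 324, 846 and 732 in the H2O2 embryo, against 1129, 1088 and 1268 in the CK embryo. It had 582, 716 and 557 in the H2O2 endosperm, against 247, 162 and 289 in the CK endosperm, with no overlap in either tissue and an interaction of -2.43 ± 0.44 (SE, adjusted p = 0.00966), or -2.001 without replicate 1. CA699722 lost the call on removal of any 1 array of CK embryo or H2O2 endosperm, replicate 2 or 3 of CK endosperm or replicate 2 or 3 of H2O2 embryo (adjusted p up to 0.0974). The metal-binding genes CA666515 and CA729143 and the metallothionein BQ606088, small proteins rich in cysteine that hold zinc and copper, were also lower in the H2O2 embryo. CA666515 had 328, 363 and 386 in the H2O2 embryo, against 908, 855 and 846 in the CK embryo. It had 12458, 11604 and 11234 in the H2O2 endosperm, against 8355, 8261 and 8887 in the CK endosperm. Its interaction was -1.75 ± 0.16 (SE, adjusted p = 1.36e-04) over 12 arrays and -1.68 (adjusted p = 9.49e-09) over 11. CA729143 had 2151, 3089 and 2803 in the H2O2 embryo, against 7377, 7665 and 7585 in the CK embryo. It had 44836, 49192 and 49018 in the H2O2 endosperm, against 47789.7, 51321 and 53149 in the CK endosperm. Its interaction was -1.42 ± 0.20 (SE, adjusted p = 0.00234) over 12 arrays and -1.27 (adjusted p = 6.63e-08) over 11. BQ606088 had 1039, 526 and 588 in the H2O2 embryo, against 1323, 1319 and 1291 in the CK embryo. It had 13031, 14267 and 14408 in the H2O2 endosperm, against 7461, 8380.4 and 8932 in the CK endosperm. Its interaction was -1.69 ± 0.28 (SE, adjusted p = 0.00578), or -1.99 without replicate 1. All 3 were lower on every H2O2 embryo array than on every CK embryo array, as were 8.20% of all probe sets, and the acid phosphatase CD453971 was too, with means of 53.4 in the H2O2 embryo against 223 in the CK embryo and 3262 in the H2O2 endosperm against 1670.0 in the CK endosperm and an interaction of -3.22 ± 0.49 (SE, adjusted p = 0.00366) over 12 arrays and -3.07 (adjusted p = 1.39e-04) over 11.

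Transcripts of this kind were then counted without regard to names. In all, 147 probe sets averaged at least 5000 in the CK endosperm and at least 5 times their level in the CK embryo, a choice made after the values were seen. Their median effect was -0.40 in embryo and 0.06 in endosperm with 12 arrays, beside 0.12 and -0.01 over all probe sets, and -0.39 in embryo without replicate 1, beside -0.01. In the interaction 1 was higher in embryo and 32 higher in endosperm with 12 arrays, and 4 and 70 with 11, against 0.849% and 1.09% of all probe sets with 12 arrays and 4.34% and 4.66% with 11. In the embryo 26 fell and 1 rose with 12 arrays, against 0.162% and 0.0481% of all probe sets, and 62 fell and 3 rose with 11, against 0.878% and 0.630%. In the endosperm 1 fell and 6 rose with 12 arrays, against 1.57% and 1.78%, and 11 fell and 40 rose with 11, against 6.65% and 7.08%. The embryo level was a median of 4.13% of the endosperm level with H2O2 and 6.01% in CK. Endosperm tissue carried into the embryo samples would give these transcripts a signal there, and its part in the result was not tested. The oleosin CD921530, also brighter in the endosperm, had means of 1254 in the H2O2 embryo and 796 in the CK embryo. Its means were 6010.1 in the H2O2 endosperm and 6288 in the CK endosperm. Its interaction was 0.71 with 12 arrays (adjusted p = 0.122, not called) and 0.56 with 11 (adjusted p = 0.0110). The other oleosin, CD920884, gave 0.28 with 12 arrays (adjusted p = 0.654) and 0.05 with 11 (adjusted p = 0.876). Both were chosen after their values were seen, and what they mean for carried-over tissue was not tested.

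Other interactions below 0 came from genes with a higher signal in the H2O2 endosperm than in the CK endosperm, among them hexokinase, an alkaline invertase and a sucrose-phosphate synthase. The sucrose and fructan list of 13 as a whole gave 1 higher in embryo and 2 higher in endosperm with 12 arrays and 3 higher in embryo and 2 higher in endosperm with 11, against 0.849% and 1.09% of all probe sets with 12 arrays and 4.34% and 4.66% with 11. In the endosperm 1 of its members rose and 3 fell with 12 arrays, and 2 rose and 5 fell with 11. Only 4 of the 13 names do not come from the study's list of changed genes, and none of those 4 was called in the interaction in either fit. Of all probe sets, 13.2% had all 3 H2O2 endosperm arrays above all 3 CK endosperm arrays, and every gene whose values follow was among them. The vacuolar ATPase subunit A (CA680179), part of the pump that acidifies the vacuole, had 431, 201 and 137 in the H2O2 embryo, against 220.0, 233 and 295 in the CK embryo. It had 234, 158 and 261 in the H2O2 endosperm, against 11.4, 17.7 and 13.4 in the CK endosperm. Its embryo groups overlapped, and its endosperm level was near the floor in CK, so the size of its interaction, -4.05 ± 0.64 (SE, adjusted p = 0.00446) over 12 arrays and -4.51 (adjusted p = 6.67e-05) over 11, is not exact. Hexokinase BJ246057, the entry of glucose into metabolism, had 36.9, 96.2 and 122 in the H2O2 embryo, against 188, 135 and 166 in the CK embryo. It had 996, 978 and 833 in the H2O2 endosperm, against 249, 328 and 252 in the CK endosperm. It was lower with H2O2 on every embryo array and higher on every endosperm array, with log2 effects of -1.09 in embryo (adjusted p = 0.383) and 1.77 in endosperm (adjusted p = 0.0153) and an interaction of -2.86 ± 0.52 (SE, adjusted p = 0.0103) over 12 arrays and -2.34 (adjusted p = 4.51e-05) over 11. GTP cyclohydrolase CA604767, the first enzyme of folate synthesis, had 161, 728 and 741 in the H2O2 embryo, against 1125, 1148 and 1340.0 in the CK embryo. It had 2413, 1887 and 2622 in the H2O2 endosperm, against 847, 1019.9 and 1076 in the CK endosperm. The groups lay apart in both tissues, in opposite directions, and replicate 1 was the lowest of its group, with an interaction of -2.67 ± 0.59 (SE, adjusted p = 0.0324) over 12 arrays and -1.94 (adjusted p = 1.28e-06) over 11. Alkaline invertase CA658075, which splits sucrose, had 274, 281 and 322 in the H2O2 embryo, against 345, 409.5 and 405 in the CK embryo. It had 297, 238 and 267 in the H2O2 endosperm, against 111, 87.5 and 77.3 in the CK endosperm. Its interaction was -1.95 ± 0.34 (SE, adjusted p = 0.00831), or -1.91 without replicate 1. Sucrose-phosphate synthase CA716620, which makes sucrose, had 57.2, 105 and 112 in the H2O2 embryo, against 194, 213 and 205 in the CK embryo. It had 280.1, 398 and 357 in the H2O2 endosperm, against 154, 162 and 142 in the CK endosperm. Its interaction was -2.38 ± 0.45 (SE, adjusted p = 0.0124), or -2.07 without replicate 1. CA604767 lost the call on removal of any 1 array of CK embryo, CK endosperm or H2O2 endosperm (adjusted p up to 0.101).

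**Figure D4:**
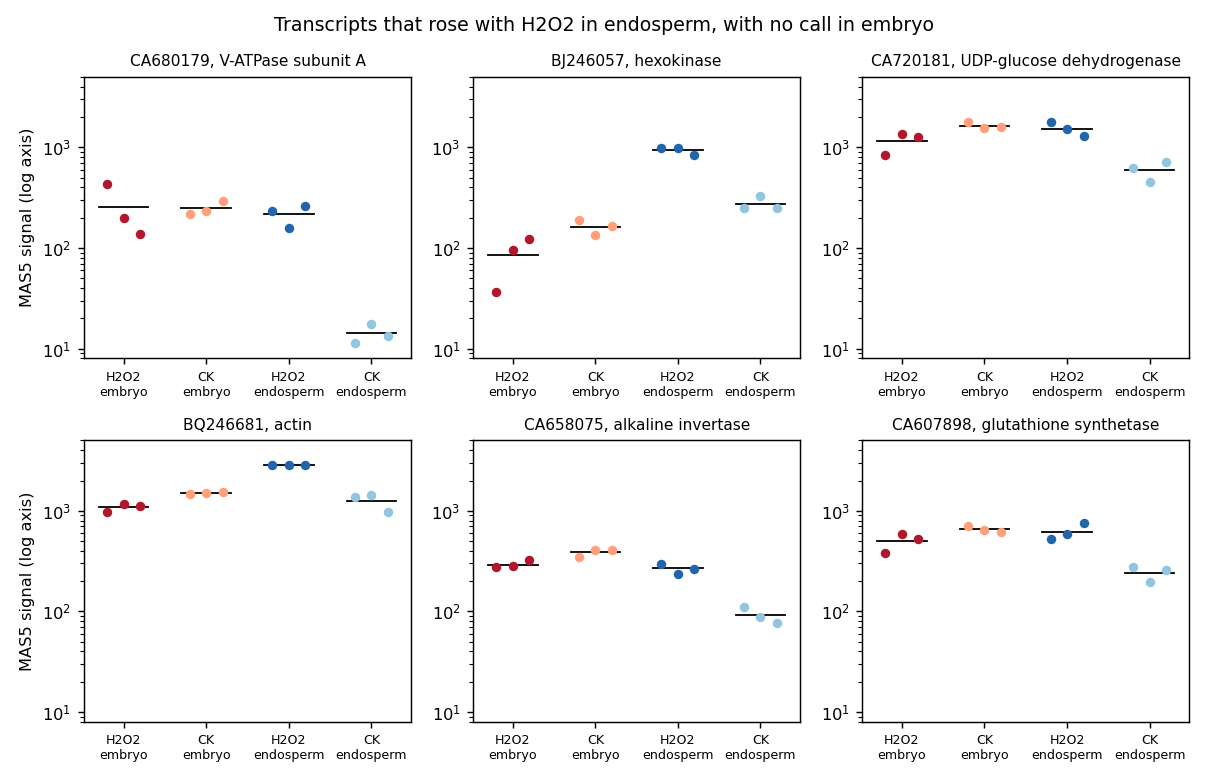
MAS5 signal on each array (points, log axis) and group mean (lines) for 6 transcripts in H2O2 embryo, CK embryo, H2O2 endosperm and CK endosperm. In each panel the 3 H2O2 endosperm arrays lie above the 3 CK endosperm arrays, and the V-ATPase subunit lies near the floor of 10 in the CK endosperm.

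Actin and myosin, of the cytoskeleton, and 2 genes of the heat shock list followed the same course. Actin BQ246681 had 970.2, 1173 and 1117 in the H2O2 embryo, against 1480.0, 1491 and 1531 in the CK embryo. It had 2868, 2863 and 2824 in the H2O2 endosperm, against 1365, 1441 and 978 in the CK endosperm. Myosin CA663837, the motor that runs on actin, had 182, 442 and 305 in the H2O2 embryo, against 748, 678 and 648 in the CK embryo. It had 573, 608 and 561 in the H2O2 endosperm, against 165, 279 and 302 in the CK endosperm. Both genes were lower with H2O2 on every embryo array and higher on every endosperm array, with interactions of -1.67 ± 0.21 (SE, adjusted p = 9.24e-04) over 12 arrays and -1.59 (adjusted p = 4.52e-06) over 11 for actin and -2.52 ± 0.42 (SE, adjusted p = 0.00600) over 12 arrays and -2.18 (adjusted p = 8.65e-05) over 11 for myosin. Of 13 tubulin and actin probe sets, BQ246681 was the 1 called with 12 arrays, against 0.849% higher in embryo and 1.09% higher in endosperm of all probe sets. With 11 arrays 8 higher in embryo and 1 higher in endosperm passed, against 4.34% and 4.66%, so most calls of the list lay in the other direction. Of the 10 names that do not come from the study's list of changed genes, 0 were called with 12 arrays. With 11 arrays 8 of the 10 were called higher in embryo and 0 higher in endosperm, and BQ246681 is not among the 10. Heat shock protein 70 (CA699307), a chaperone, had 285, 193 and 85.8 in the H2O2 embryo, against 299, 253 and 256 in the CK embryo. It had 391, 458 and 428 in the H2O2 endosperm, against 114, 124 and 157 in the CK endosperm. Its interaction was -2.39 (-2.77 without replicate 1, adjusted p = 0.0269 with it). CA611464, placed in heat stress, averaged 419 in the H2O2 embryo against 576 in the CK embryo and 711 in the H2O2 endosperm against 236 in the CK endosperm. The interaction of CA611464 was -2.19 (-1.89 without replicate 1, adjusted p = 0.0190 with it). CA699307 and CA611464 belong to a list of 5 of which 2 passed with 12 arrays and 3 with 11, in the same direction, against 1.09% and 4.66% of all probe sets. Only 1 of the 5 names does not come from the study's list of changed genes, and that probe set was not called in either fit. The counts are therefore not independent evidence of a direction. CA699307 lost the call on removal of any 1 array of CK embryo or H2O2 endosperm or replicate 1 or 2 of CK endosperm (adjusted p up to 0.0939). CA611464 lost the call on removal of any 1 array of H2O2 endosperm or replicate 1 or 3 of CK embryo (adjusted p up to 0.0725).

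Of the 1087 called probe sets, 173 carry a name in the tables used here, and the 2 highest and the 2 lowest interactions among the unnamed that the rule selected are given here. CA743402 had 1080.1, 584 and 901 in the H2O2 embryo, against 10.1, 201 and 5.82 in the CK embryo. It had 6.26, 88.8 and 28.0 in the H2O2 endosperm, against 251, 117 and 225 in the CK endosperm. Its interaction was 7.61 ± 1.41 (SE, adjusted p = 0.0115), or 7.42 without replicate 1. CD873027 had 774, 485 and 482 in the H2O2 embryo, against 309, 287 and 264 in the CK embryo. It had 18.3, 6.87 and 4.33 in the H2O2 endosperm, against 207, 128 and 189.6 in the CK endosperm. Its interaction was 4.79 ± 0.53 (SE, adjusted p = 3.67e-04), or 4.57 without replicate 1. Several of their CK embryo or H2O2 endosperm signals lay under the floor, so these sizes are not exact. In the opposite direction BJ223549 had 55.8, 3.86 and 112 in the H2O2 embryo, against 163, 151 and 180.4 in the CK embryo. It had 645, 487 and 518 in the H2O2 endosperm, against 92.1, 102 and 140.0 in the CK endosperm. Its interaction was -4.37 ± 0.90 (SE, adjusted p = 0.0215), or -4.62 without replicate 1. The probe set Ta.4525.2.S1_at had 124, 87.6 and 90.8 in the H2O2 embryo, against 137, 169 and 145 in the CK embryo. It had 157, 168 and 143 in the H2O2 endosperm, against 18.6, 5.82 and 7.48 in the CK endosperm. Its interaction was -4.25 ± 0.66 (SE, adjusted p = 0.00407), or -4.41 without replicate 1. BJ223549 lost the call on removal of any 1 array of CK embryo or H2O2 endosperm or replicate 1 or 2 of CK endosperm (adjusted p up to 0.0736).

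**Figure D5:**
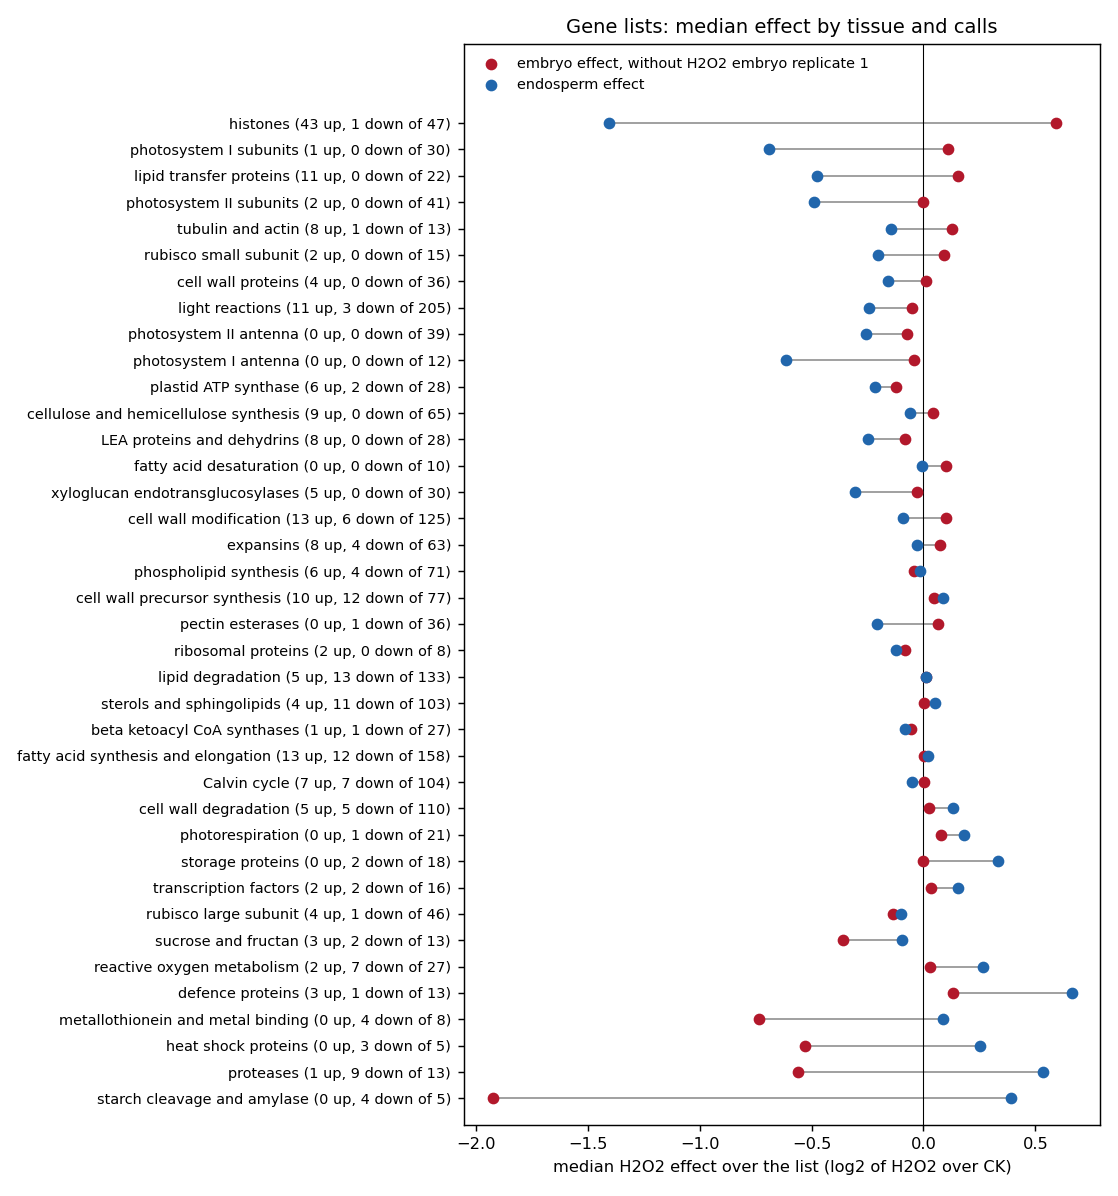
Median log2 effect of H2O2 over CK in embryo (red) and endosperm (blue) for each gene list with at least 5 probe sets tested, from the 11 arrays without H2O2 embryo replicate 1, ordered by median interaction; the labels give the members called in the interaction as higher in embryo (up) and higher in endosperm (down). Histones stand at the top, with medians of 0.59 in embryo and -1.41 in endosperm, and starch cleavage at the bottom, with -1.92 and 0.39.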

How the data were processed

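Arrays were hybridised with biotin-labelled cRNA made from total RNA, and the authors computed one intensity per probe set with MAS5. The deposited intensity values are linear, and their 2% trimmed mean was 500.1 on every array. Of 61290 rows, 111 were Affymetrix controls and were not used, and 61179 were wheat probe sets. No sequence depth applies to arrays, and the number of arrays, 3 per group, limits the precision.

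Signals were raised to a floor of 10 and taken to log2. Probe sets with a signal of 20 on at least 3 of the 12 arrays were tested, which left out 5001 and kept 56178. A model with 4 group means was fitted with limma 3.58.1 in R 4.3.3 (eBayes with a trend, Benjamini-Hochberg adjusted p under 0.05), with contrasts for H2O2 against CK in each tissue and for the difference between them. Changes are on the scale of log2 of the floored signal and understate those of dim genes. No 2 arrays were identical. The labels call the arrays biological replicates and the study describes separately treated seed material, without naming seed lots.

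Names came from the study's functional classification and list of changed genes, the platform annotation and the RefSeq gene table, and 1850 of the 61179 probe sets had one. Columns of the authors' own comparisons were not used. The genes in the text are the 15 highest and 15 lowest interactions among named probe sets called with 12 and with 11 arrays that average 100 in some group, up to 4 per gene list, the genes with RT-PCR primers, and the 2 highest and 2 lowest without a name, besides histone exceptions and 2 oleosins chosen after their values were seen. Members and lists were chosen with earlier results of these data known. The alternatives changed the floor, filter, normalisation, moderation, array weights, arrays and threshold, and used the replicate number as a block.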

Additional observations from a re-analysis of the deposited data

Results flagged for a closer look

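The effect of H2O2 differed between embryo and endosperm by a direct test of the difference for 1087 probe sets with 12 arrays (limma interaction term, adjusted p of 0.05), and 88 of the probe sets named in the report were among them. The values below are the embryo minus endosperm log2 effects of those 88, given without an explanation. Histone probe sets gave 3.89 for BJ209178, 3.75 for BJ308545, 3.52 for BJ217006, 3.30 for BJ221397, 3.03 for BJ214272, 2.99 for BJ219603, 2.84 for BJ225202 and 2.57 for BJ306445. Those of photosynthesis gave 5.11 for CA645616, 4.51 for CA656907, 2.41 for CA656046, 2.27 for CK212552, 1.94 for BJ265323, 1.40 for CA659744 and 1.38 for AY328025. Cell wall genes gave -4.70 for BJ314801, 1.95 for CA642396, -1.90 for CA720181, -1.37 for CA654194, 1.44 for CK208409, 0.95 for BJ260861, 0.94 for CD452591, 0.88 for BJ283983, -1.92 for CA694274 and 1.64 for BQ237981. They further gave -1.40 for BJ274015, 0.67 for BQ905539, 1.94 for AY543531, 1.91 for CA638337, -1.63 for BQ838005, 1.59 for CK214572, 1.47 for CA637685, 1.36 for AY543529 and 0.72 for CD866709. Lipid genes gave 4.33 for CA729605, 4.13 for BJ242205, -2.75 for CA733369, -2.33 for BJ238421, -0.90 for CA663328, 1.48 for BQ483035, 1.07 for CK159209, -1.02 for BJ222865, -2.19 for CA610745 and -0.84 for CA652505. They further gave -1.94 for CA651259, -1.20 for BJ272793, 1.17 for CK215090 and 1.03 for CK164223. Genes of starch cleavage, protein degradation and metal binding gave -2.95 for BF293263, -2.80 for CA699722, -2.58 for BQ169109, -2.56 for CA720455, -2.47 for BJ251154, -2.43 for CA642033, -2.05 for AL820663, -1.72 for CA644563, -1.75 for CA666515 and -1.69 for BQ606088. They further gave -1.42 for CA729143. Among the remaining named genes the values were 2.90 for BJ274638, 2.70 for CK216297, 2.69 for BJ239674, -4.05 for CA680179, -3.22 for CD453971, -2.86 for BJ246057, -2.67 for CA604767, -2.52 for CA663837, -2.39 for CA699307 and -2.38 for CA716620. They further were 2.06 for CK199583, -1.77 for CA607898, 1.50 for AY064480, 1.35 for M21962, -1.19 for CA608459, -2.19 for CA611464, 1.85 for CA602902, 0.88 for CD453602, -1.95 for CA658075 and 1.46 for CD869165. They further were 1.28 for CA741924, -1.24 for AJ615787, -1.67 for BQ246681, 2.06 for AY123421 and 1.13 for M25537. The probe sets without a name gave 7.61 for CA743402, 4.79 for CD873027, -4.37 for BJ223549 and -4.25 for Ta.4525.2.S1_at.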

How the results depend on the processing

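The interaction count of 1087 stayed within 1.5 times under a floor of 1 or 32, no filter, a filter of 100, quantile or 75th percentile scaling, robust moderation and a further 2-fold change (871 to 1540). It was 1831 with a floor and filter of 110, 278 without a trend, 4402 with array weights, in which H2O2 embryo replicate 1 had a weight of 0.096, 2118 with all 18 arrays in the fit and 389 at an adjusted p of 0.01. The embryo count of 118 was 191, 35, 1456, 309 and 57 under the same 5 changes. The endosperm count of 1885 was 2853, 830, 4836, 3201 and 747 under them, and 988 at 2-fold. Of the 110 called members of the gene lists, 35 were called without a trend and 254 with array weights. Leaving out 1 array gave 499 to 5054 interaction calls, 57 to 847 in the embryo, 936 to 7718 in the endosperm and 62 to 284 list members, with the highest value in each case without H2O2 embryo replicate 1. After the data were seen, quantile normalisation of the 11 arrays was added, with 4782 interaction, 880 embryo, 7673 endosperm and 273 list calls. The cause of these changes was not tested.

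The replicate number as a block gave 793 interaction, 86 embryo, 1447 endosperm and 85 list calls, and on the 11 arrays, added after the data were seen, 4904, 728, 7665 and 280. None of 18 pairs of same-numbered arrays had deviations from the group mean that correlated over 0.1 (-0.04 to 0.05). Arrays with different numbers were not compared, so these values do not settle whether same-numbered arrays came from the same seeds. Of the 93 named probe sets, 88 passed with 12 arrays, 48 kept their call whichever array was left out, and none of the 88 changed sign under any alternative. Of the others, expansin A1 (0.45) was -0.0146 with quantile normalisation and -0.054 with the block on those 11 arrays, and -0.035 (without H2O2 embryo replicate 1) to 0.69 when 1 array was left out. The dim expansin B2 probe set at -0.67 was 0.32 with a floor of 32, and -1.46 to 0.11 (without H2O2 embryo replicate 2) when 1 array was left out. None of the values that changed sign passed the test. Calls of genes with a group mean near the floor of 10 have no exact size.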
